A study of Mus musculus with 6 samples.

Results

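The 9 striated muscle myosin heavy chain genes of the mouse, Myh1, Myh2, Myh3, Myh4, Myh6, Myh7, Myh7b, Myh8 and Myh13, were followed in RNA-seq of Achilles tendon. They were chosen by name as the fast, slow, embryonic and neonatal isoforms, and all 9 were found among the 54189 features of the count table. The mice were 4 weeks of age. Control mice carried 2 floxed Dicer alleles and no Cre (Dicer f/f), ScxHt mice carried 1 knock-in allele of ScxCre with intact Dicer (ScxCre/+ Knock In:Dicer +/+), and Dicer cKO mice carried the same knock-in allele with floxed Dicer (ScxCre/+ Knock In:Dicer f/f). The Cre knock-in was thus shared by ScxHt and Dicer cKO, and the floxed alleles by Control and Dicer cKO. Cre is made from the Scx locus, which is active in tendon and ligament cells, so that muscle fibres are not its main target. Each genotype was 1 sample with 1 RNA-seq library and 1 small RNA-seq library, so no comparison has a replicate check and no p-value was computed.

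Myosin heavy chains are the motor proteins of the thick filament, and each muscle fibre type is defined by the chain that it makes. In limb muscle of the mouse, Myh7 marks slow fibres, and Myh2, Myh1 and Myh4 mark the fast types 2a, 2x and 2b, in the order from slower to faster contraction. Myh3 and Myh8 are the embryonic and the perinatal chain, Myh13 is known from the muscles of the eye and larynx, Myh6 is the main chain of the adult mouse heart, and Myh7b is an ancient slow-tonic chain. The Achilles tendon joins the calf muscles to the heel bone, and tendon cells themselves are not known to build sarcomeres.

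On the GRCm38 assembly with the GENCODE vM21 annotation, 6 members lie head to tail on the plus strand of chromosome 11, in the order Myh3, Myh2, Myh1, Myh4, Myh8 and Myh13, between 67078300 and 67371586. This cluster spans 293 kb, and only 2534 bases separate the end of Myh2 from the start of Myh1. Myh4 itself lies between 67238029 and 67260446. Myh6 (54941921 to 54966927) and Myh7 (54970684 to 54994626) are neighbours on the minus strand of chromosome 14, 3756 bases apart. Myh7b lies on chromosome 2 between 155611212 and 155634307.

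The promoters of the adult fast genes and of their neighbour Myh8 are shown because the ratios of Myh4 to the Control library differed from those of Myh1 and Myh2. RefSeq promoters on GRCm38.p6 were used, each from 250 bases before to 50 bases after the annotated start. The longest run of bases common to Myh2, Myh1, Myh4 and Myh8, the 4 members named for the search, was taken. Other sets of members were not searched for a run. A run of 14 bases, given in capitals below and read 5′ to 3′ on the plus strand with 8 flanking bases on each side, was found in Myh2, Myh1, Myh4 and Myh8. It was in 4 of 32851 promoters in all (0.0122%), that is in no promoter outside these 4 genes. Its presence in these 4 follows from the search itself. How often a run of this length would be absent elsewhere was not tested, so the count describes the run only.
Myh2, chr11:67170894-67170923: aaaaatatTTCTAATTATATCCaaccattc
Myh1, chr11:67199934-67199963: gggaatatTTCTAATTATATCCaaacatcc
Myh4, chr11:67237646-67237675: agaaatatTTCTAATTATATCCattcacag
Myh8, chr11:67277062-67277091: atgaatacTTCTAATTATATCCgaagatgc
Counted from the RefSeq starts, which for some genes differ from the GENCODE starts given above, the run began 125 bases before Myh2, 160 before Myh1, 158 before Myh4 and 54 before Myh8. Myh4 and its neighbours Myh1 and Myh2, whose ratios differed from its own, held the same run.

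Known motifs of muscle promoters were searched on both strands of the same windows. A MEF2 site was in Myh1, Myh4 and Myh8 (3.19% of all promoters held one), and a CArG box was in Myh4 and Myh13 (1.63%). The letters CATTCC of the MCAT motif were in Myh1, Myh4, Myh6 and Myh7 (14.7% of all promoters), TATAAA in 6 members (13.6%), and the E-box CANNTG in 7 members (72.3%). Myh4 was the member whose window held all 5 motifs. How many of all promoters held all 5 was not counted, so this describes its window only. Matches of different motifs may overlap, and a match describes letters, not binding.

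3 members carry a miRNA in an intron, miR-208a in Myh6, miR-208b in Myh7 and miR-499 in Myh7b, and these are known to be made from the host transcript. Their mature RefSeq sequences are shown with the seed, bases 2 to 8, in capitals, because they give a separate readout of the slow and cardiac members in the small RNA libraries.
mmu-miR-208a-3p: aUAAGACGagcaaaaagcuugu
mmu-miR-208b-3p: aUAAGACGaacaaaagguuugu
mmu-miR-499-5p: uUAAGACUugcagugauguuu
The seed of miR-208a and miR-208b was identical in 7 of 7 bases, and the seed of miR-499 matched theirs in 6 of 7. Outside the seed, miR-208a and miR-208b differed little, with 19 of 22 bases equal over the whole length.

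The RNA-seq counts added up to 14959399 to 16244232 per library. Tendon markers were at high levels in all 3 libraries, with a summed RPKM (reads divided by feature length and by library total) of 15111 in Control, 13134 in ScxHt and 8570 in Dicer cKO for 6 markers, and 4 of the 6 had a ratio under 0.60 in Dicer cKO/Control. Of all genes with a mean normalized count over 50, 4.18% had such a ratio. The 7 markers of skeletal muscle fibres were also present, with a summed RPKM of 4718, 3092 and 8079, which is 5.02%, 2.62% and 8.45% of all counts. For 4 of 6 heart markers, every library had 3 or fewer reads, with no read of Nppa, Nppb or Myl7, and 1 marker, Ryr2, had a mean normalized count over 50. The 4 satellite cell markers Pax7, Myf5, Myod1 and Myog together had 48, 36 and 119 reads, and 0 of them had a mean normalized count over 50. The 4 smooth muscle markers had a summed RPKM of 147.5, 165.2 and 192.8. Of these, 1, Tagln, was counted as higher in Dicer cKO/Control and 0 passed a threshold in ScxHt/Control. The ratio of Tagln in Dicer cKO/Control was 1.672 (1.484 to 1.885), barely over the upper threshold. Across all genes, 3.87% were called higher in that comparison. Dicer1, the targeted gene, had 1919 reads in Control, 2025 in ScxHt and 1621 in Dicer cKO, counted over the whole gene and not over the floxed part alone. Its ratio was 0.877 (0.821 to 0.938) in Dicer cKO/Control and 1.01 (0.950 to 1.08) in ScxHt/Control.

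Together the 9 heavy chains took 0.841% of the counts in Control, 0.608% in ScxHt and 1.56% in Dicer cKO. Levels are compared between genes as RPKM, which divides by length. In the Control library, Myh1 had the highest RPKM with 408.6, followed by Myh2 with 318.5, Myh7 with 291.2 and Myh4 with 83.2. The 4 adult limb chains thus made up most of the family there, with the type 2b chain Myh4 far below the other 3. In the ScxHt library the order of these chains was different, with Myh4 first at an RPKM of 420.0, Myh1 at 210.8, Myh2 at 143.5 and Myh7 at 104.5. In the Dicer cKO library Myh2 was first with 650.5, Myh1 had 564.0, Myh4 553.5 and Myh7 369.0. Among all features of the table, Myh4 was at rank 282 by RPKM in Control, 64 in ScxHt and 62 in Dicer cKO, whereas Myh1 was at rank 64, 123 and 60.

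The other 5 chains were below an RPKM of 50 in every library. Myh6 had 30.6 in Control, 11.1 in ScxHt and 37.6 in Dicer cKO, and Myh3 had 22.2, 12.0 and 42.8. Myh13 had 11.1, 7.46 and 17.4, and Myh8 had 10.1, 7.70 and 20.6, the latter with an RPKM taken over 11770 bases, nearly double the length used for its neighbours, so its RPKM is lower than it would be over a length like theirs. Myh7b, the lowest member, had 1.36, 0.516 and 1.64. Neighbours in this order were separated beyond counting error in every library with 2 exceptions, both in the ScxHt library. There the ratio of Myh3 to Myh6 was 1.08 (95% exact interval 0.996 to 1.17) and that of Myh8 to Myh13 was 1.03 (0.943 to 1.13).

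**Figure D1:**
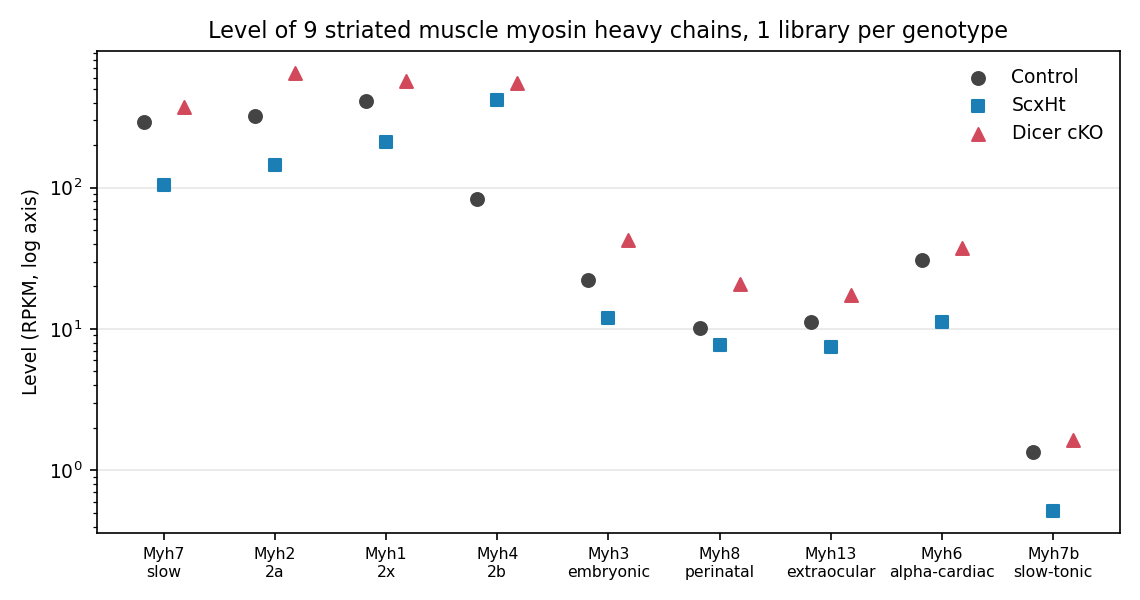
Level of each member in RPKM (log axis) in the Control (circles), ScxHt (squares) and Dicer cKO (triangles) library, 1 library per point and no error bars. The ScxHt point is the lowest of the 3 for every member except Myh4, where the Control point is the lowest with 83.2.

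Myh4 had 8125 reads in Control, 39836 in ScxHt and 49811 in Dicer cKO. The Control library stood far below the ScxHt and Dicer cKO libraries, and the Dicer cKO library had the most reads. Beside Myh1 in the same library, Myh4 was instead highest in the ScxHt library, as given below. With counts scaled by the size factors of both libraries, the ratio was 4.70 (4.59 to 4.81) in ScxHt/Control and 6.37 (6.22 to 6.52) in Dicer cKO/Control. The ratio in Dicer cKO/ScxHt was 1.38 (1.36 to 1.40), the smallest of the 9 members in that comparison. Intervals here and throughout are 95% exact (Clopper-Pearson) intervals that cover counting error only, and since reads were not counted by molecular identifiers they are not independent molecules. In bulk tissue, fewer fibres of a type and less RNA per fibre cannot be told apart.

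Following the thresholds of the study, a gene was called lower at a ratio under 0.60 and higher at a ratio over the reciprocal of 0.60 (rounded to 2 decimals), where the mean normalized count of the 2 libraries (baseMean) exceeded 50. All 9 members passed this minimum in all 3 comparisons. In ScxHt/Control, 1 member, Myh4, was higher and 6 (Myh1, Myh2, Myh3, Myh6, Myh7 and Myh7b) were lower, where 3.05% of 13563 analysed genes were higher and 4.73% were lower. The median log2 ratio of the members was -1.06, beside 0.02 over all genes analysed. In Dicer cKO/Control, 4 members were higher (Myh2, Myh3, Myh4 and Myh8) and 0 lower, against 3.87% and 4.18% of 13504 genes, and the median log2 ratio was 0.58 beside -0.03 over all genes. With thresholds of 2 and 0.5, Myh4 alone was higher there, and Myh2 (1.95), Myh3 (1.84) and Myh8 (1.95) were not. In Dicer cKO/ScxHt, the 8 members other than Myh4 were higher and 0 lower, against 7.67% and 5.68% of 13555 genes, with a median of 1.73 beside -0.03. The first 2 comparisons share the Control library, and each library enters 2 of the 3 comparisons, so they are not independent of each other.

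**Figure D2:**
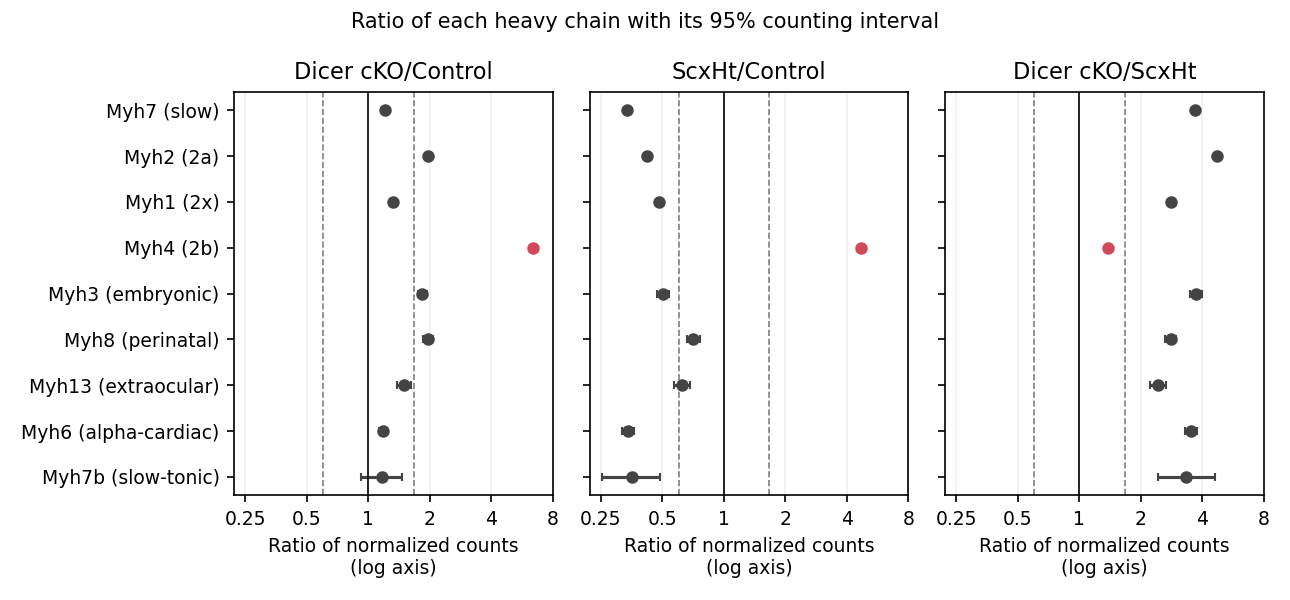
Ratio of normalized counts (log axis) of each member in the 3 comparisons, with its 95% counting interval and dashed lines at the thresholds. Myh4, in red, is the rightmost point in Dicer cKO/Control (6.37) and in ScxHt/Control (4.70) and the leftmost in Dicer cKO/ScxHt (1.38).

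Among the adult limb chains, Myh7, the slow chain, had 40759 reads in Control, 14202 in ScxHt and 47563 in Dicer cKO. The ScxHt library was low, and the other 2 were near each other. Its ratio was 0.334 (0.328 to 0.340) in ScxHt/Control and 1.21 (1.20 to 1.23) in Dicer cKO/Control. Myh2, the type 2a chain, had 36924, 16146 and 69442 reads, low in the ScxHt and high in the Dicer cKO library. Its ratios were 0.419 (0.411 to 0.427) in ScxHt/Control and 1.95 (1.93 to 1.98) in Dicer cKO/Control, and 4.74 (4.66 to 4.82) in Dicer cKO/ScxHt was the highest of the members. Myh1, the type 2x chain, had 42160, 21113 and 53596 reads. It was also lowest in the ScxHt library, with a ratio of 0.480 (0.472 to 0.488) in ScxHt/Control, and its Dicer cKO/Control ratio of 1.32 (1.30 to 1.34) was below the threshold.

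Seen within each library, which needs no scaling between libraries, Myh4 made up 7.55% of the summed RPKM of the 4 adult limb chains in Control, 47.8% in ScxHt and 25.9% in Dicer cKO. The type 2b chain was thus the smallest part of the adult set in the Control library and the largest in the ScxHt library. Myh7 made up 26.4%, 11.9% and 17.3%, Myh2 28.9%, 16.3% and 30.4%, and Myh1 37.1%, 24.0% and 26.4%. By reads, Myh4 had 0.193 (0.188 to 0.197) reads for each read of Myh1 in Control, 1.89 (1.86 to 1.92) in ScxHt and 0.929 (0.918 to 0.941) in Dicer cKO. None of these intervals overlapped.

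**Figure D3:**
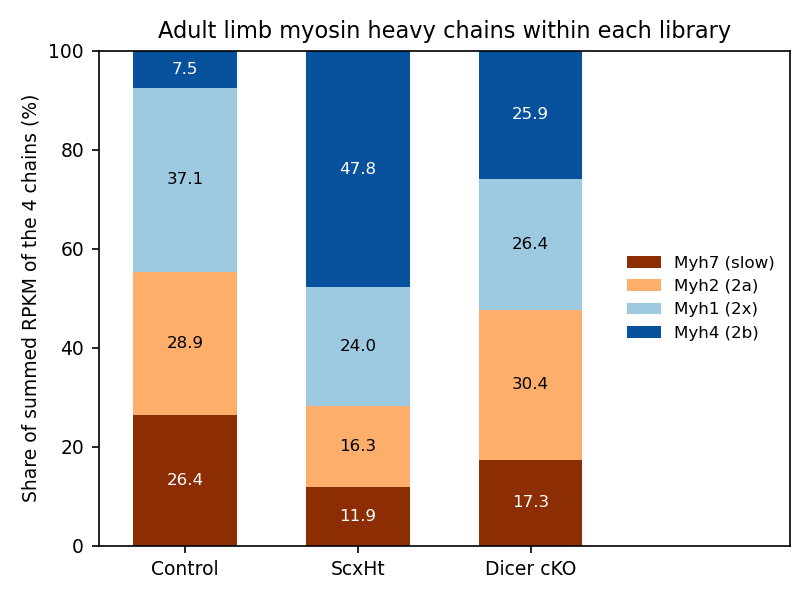
Share of the summed RPKM of Myh7, Myh2, Myh1 and Myh4 taken by each chain, in percent, as 1 stacked bar per library. The Myh4 segment at the top is 7.5% in Control, 47.8% in ScxHt and 25.9% in Dicer cKO.

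Markers of muscle fibres had ratios on the same side of 1 as the 8 members other than Myh4 in both comparisons with the Control. Myh4 was on the other side in ScxHt/Control. The median log2 ratio of the 8 members was 0.49 in Dicer cKO/Control and -1.16 in ScxHt/Control. All 7 markers (Acta1, Ckm, Ttn, Tnnt3, Atp2a1, Pygm and Des) had an interval above 1 in Dicer cKO/Control and below 1 in ScxHt/Control, with median log2 ratios of 0.73 and -0.39. Ttn, which encodes titin, the giant spring protein of the sarcomere of every striated fibre, had 688745 reads in Control, 329060 in ScxHt and 1062032 in Dicer cKO, with ratios of 1.60 in Dicer cKO/Control and 0.458 in ScxHt/Control. Each member was therefore also set beside Ttn in the same library. Relative to Ttn, the ratio of Myh4 was 10.3 in ScxHt/Control, 3.98 in Dicer cKO/Control and 0.387 in Dicer cKO/ScxHt. For the other 8 members, the ratios relative to Ttn ran from 0.724 to 1.22 in Dicer cKO/Control, from 0.729 to 1.55 in ScxHt/Control and from 0.685 to 1.33 in Dicer cKO/ScxHt, so all 8 were within both thresholds in each comparison, the 8 calls of Dicer cKO/ScxHt included. These counts depended on the marker. In ScxHt/Control, 2 of the 8 were within both thresholds relative to Tnnt3, the fast troponin T, and 3 relative to Ckm, the muscle creatine kinase. In Dicer cKO/Control 6 of the 8 were within them relative to Tnnt3, and in Dicer cKO/ScxHt 4 were relative to Pygm, the muscle glycogen phosphorylase. Myh4 was above the upper threshold against each of the 7 markers in both comparisons with the Control, from 3.17 (Tnnt3) to 4.42 (Des) in Dicer cKO/Control and from 5.21 (Tnnt3) to 10.3 (Ttn) in ScxHt/Control. In Dicer cKO/ScxHt it was below 1 against all 7, from 0.387 (Ttn) to 0.659 (Pygm). The markers other than Ttn were added as yardsticks after the data were seen. The part that the amount and the kind of muscle in each sample had in the ratios was not tested, for Myh4 or for the other members.

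In reads, Myh4 stood at 1.18% of the reads of Ttn in Control, 12.1% in ScxHt and 4.69% in Dicer cKO. Myh1 stood at 6.12%, 6.42% and 5.05%, Myh2 at 5.36%, 4.91% and 6.54%, and Myh7 at 5.92%, 4.32% and 4.48%. Beside titin, the slow chain Myh7 had a ratio of 0.729 in ScxHt/Control and 0.757 in Dicer cKO/Control, below 1 but within the thresholds. Myh6 (0.741 and 0.734) and Myh7b (0.774 and 0.724) had similar ratios.

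**Figure D4:**
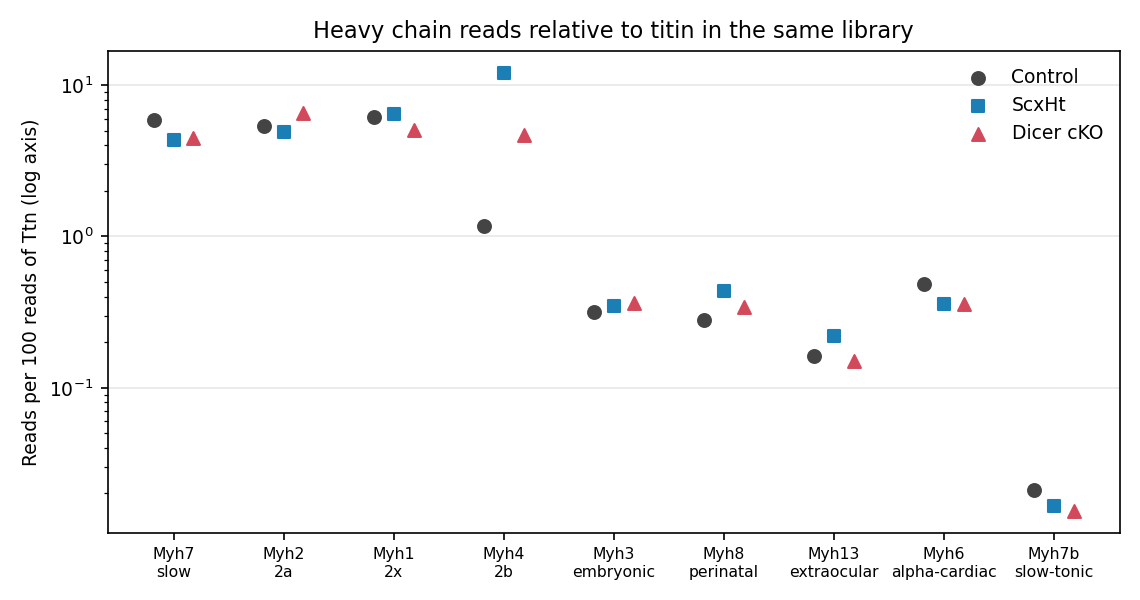
Reads of each member per 100 reads of Ttn in the same library (log axis), with symbols as for the levels. The 3 libraries lie close together for most members, and Myh4 spreads from 1.18 in the Control to 12.1 in the ScxHt library.

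The developmental chains were low in all libraries. Myh3, the embryonic chain, had 2187 reads in Control, 1149 in ScxHt and 3873 in Dicer cKO, and Myh8, the perinatal chain, had 1931, 1429 and 3634. Both were highest in the Dicer cKO library, with ratios to the Control of 1.84 (1.75 to 1.94) for Myh3 and 1.95 (1.85 to 2.07) for Myh8. In ScxHt/Control, Myh3 was lower with 0.504 (0.468 to 0.541), and Myh8 was at 0.709 (0.662 to 0.760), within the thresholds. As a share of the summed RPKM of the 9 members, Myh3 and Myh8 together were 2.75% in Control, 2.15% in ScxHt and 2.81% in Dicer cKO, so the Dicer cKO and Control libraries had nearly the same share. Reads of Myh3 per read of Myh8 were 1.13 (1.07 to 1.21), 0.804 (0.743 to 0.870) and 1.07 (1.02 to 1.12), lowest in the ScxHt library. Of 6 markers of developing or denervated fibres, 3 passed the minimum, and 1 of these was higher in Dicer cKO/Control and in ScxHt/Control. Over all genes analysed, 3.87% and 3.05% were higher in these comparisons. Chrng, the fetal subunit of the acetylcholine receptor, had 1 read in the Control library and 0 in the others, and Chrna1 had 29, 15 and 51. The higher gene was Actc1, the cardiac actin that skeletal muscle makes during development, which had 286, 1272 and 1512 reads, with ratios of 4.26 in ScxHt/Control and 5.49 in Dicer cKO/Control.

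Myh13 had 1118 reads in Control, 727 in ScxHt and 1607 in Dicer cKO. Its ratios of 0.623 (0.567 to 0.685) in ScxHt/Control and 1.49 (1.38 to 1.61) in Dicer cKO/Control were within the thresholds, and it was higher in Dicer cKO/ScxHt with 2.44 (2.23 to 2.66). Per read of Myh1 it stood at 2.65%, 3.44% and 3.0%, a narrow range beside that of Myh4.

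The cardiac chain Myh6 had 3337 reads in Control, 1181 in ScxHt and 3777 in Dicer cKO, the same order as its neighbour Myh7. Its ratios were 0.339 (0.317 to 0.363) in ScxHt/Control, 1.18 (1.12 to 1.23) in Dicer cKO/Control and 3.52 (3.30 to 3.77) in Dicer cKO/ScxHt. Reads of Myh6 were a near constant share of those of Myh7, 8.19% (7.90 to 8.48), 8.32% (7.83 to 8.83) and 7.94% (7.68 to 8.21), with intervals that overlapped in all 3 libraries. The transcripts of these 2 genes were 90.5% identical, and 20.2% of the words of 50 bases in Myh6 also occurred in Myh7. How many of the reads of Myh6 came from Myh7 was not tested. Of the heart markers, Nppa, Nppb and Myl7 had no read in any library. Ryr2 had 82 reads in Control, 50 in ScxHt and 91 in Dicer cKO, and Tnni3 had 36, 52 and 47.

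The fast members share sequence too. Words of 50 bases that also occurred in another member made up 25.4% of Myh1, 22.9% of Myh2 and 18.9% of Myh4, and transcripts of Myh1 were 90.2% identical to Myh2 and 89.6% to Myh4. In words of 100 bases these shares were 9.24%, 7.80% and 3.85%. How reads that fit several members were assigned is not given in the sources used here. The counts of these genes are therefore uncertain, by an amount that these shares do not measure. Myh7b shared no word of either length with another member.

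Myh7b had 146 reads in Control, 54 in ScxHt and 163 in Dicer cKO, the fewest of the family. It was lower in ScxHt/Control with a ratio of 0.354 (0.254 to 0.487), and the Dicer cKO/Control ratio of 1.16 had an interval from 0.922 to 1.46, so a difference was not detectable at this depth. Reads of Myh7b were 0.358% (0.302 to 0.421), 0.380% (0.286 to 0.496) and 0.343% (0.292 to 0.400) of those of Myh7, again with overlapping intervals. Several genes overlap these members. Trpc4ap, with 1822, 1913 and 1557 reads, meets the end of Myh7b on the other strand, and Mhrt, an antisense RNA at Myh7, had 9, 10 and 21 reads. The strand setting of the counting is not given in the sources used here, so reads of a gene and its antisense partner may not be separated.

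The miRNAs of the 3 host genes were read from the small RNA libraries of the same samples, whose counts added up to 8435829 to 10986541. Mir208b, inside Myh7, had 256 reads in Control, 137 in ScxHt and 344 in Dicer cKO. Like its host it was lowest in the ScxHt and highest in the Dicer cKO library. Its ratios were 1.54 (1.31 to 1.82) in Dicer cKO/Control and 0.603 (0.486 to 0.745) in ScxHt/Control, beside 1.21 and 0.334 for Myh7. Mir499, inside Myh7b, had 73, 42 and 103 reads with the same order, and ratios of 1.62 (1.19 to 2.21) and 0.648 (0.433 to 0.960) beside 1.16 and 0.354 for its host. Both were thus within the thresholds in both comparisons with the Control and were higher in Dicer cKO/ScxHt, with 2.51 (2.05 to 3.08) for Mir208b and 2.45 (1.70 to 3.60) for Mir499. Mir208a, inside Myh6, had 0, 1 and 2 reads, at or under the floor of 3 reads, and no ratio was taken. Dicer makes mature miRNAs from their hairpins, and neither Mir208b nor Mir499 was lower in the library labelled Dicer cKO. The muscle fibre marker Ttn had a ratio of 1.60 in Dicer cKO/Control, and the miRNA ratios were not scaled to muscle content. Whether the processing of these miRNAs differed between the libraries was not tested.

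The light chains sit on the neck of each myosin head. Of 8 listed, 6 passed the minimum, and 3 of these were higher in Dicer cKO/Control, 3 were lower in ScxHt/Control and 5 were higher in Dicer cKO/ScxHt. The median log2 ratios of the 6 were 0.64, -0.75 and 1.58. Over all genes analysed, 3.87% were higher, 4.73% lower and 7.67% higher in these comparisons, in the same order. The light chains of fast fibres were Myl1, with 10973 reads in Control, 10382 in ScxHt and 20848 in Dicer cKO, and Mylpf, with 3423, 3986 and 8158. In ScxHt/Control they were near 1, with 0.907 for Myl1 and 1.12 for Mylpf, and in Dicer cKO/Control both were higher, with 1.97 and 2.48. The slow light chains Myl2 and Myl3 had ratios of 0.372 and 0.310 in ScxHt/Control and 1.44 and 1.25 in Dicer cKO/Control, close to those of Myh7. Myl6b, another slow light chain, had 0.392 and 1.68, and the atrial and embryonic chain Myl4 had 0.951 and 1.46.

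Proteins that bind myosin in the thick filament and at its middle, the M-band, were listed with 8 genes, of which 6 passed the minimum. In Dicer cKO/Control 4 were higher and 0 lower, and in ScxHt/Control 2 were higher and 3 lower. In Dicer cKO/ScxHt 4 were higher. The median log2 ratios were 0.83, -0.54 and 1.40. Genes called higher made up 3.87%, 3.05% and 7.67% of all genes, in the same order. Genes called lower made up 4.18% in Dicer cKO/Control and 4.73% in ScxHt/Control. The 2 listed genes higher in ScxHt/Control, as Myh4 was, were Mybpc2, the fast form of myosin-binding protein C, and Mybph, the related protein H. Mybpc2 had 1081 reads in Control, 2776 in ScxHt and 3620 in Dicer cKO, and Mybph had 121, 323 and 440. For both genes the Control library was the low one. Their ratios were 2.46 and 2.56 in ScxHt/Control and 3.48 and 3.78 in Dicer cKO/Control. The slow form Mybpc1, by contrast, had 19928, 9266 and 28265 reads, with ratios of 0.446 in ScxHt/Control and 1.47 in Dicer cKO/Control. Of the myomesins, which link thick filaments at the M-band, Myom3 had ratios of 0.421 and 1.32 in these comparisons, Myom1 0.591 and 1.69, and Myom2 0.802 and 1.88. The heart form Mybpc3 had at most 1 read in any library.

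**Figure D5:**
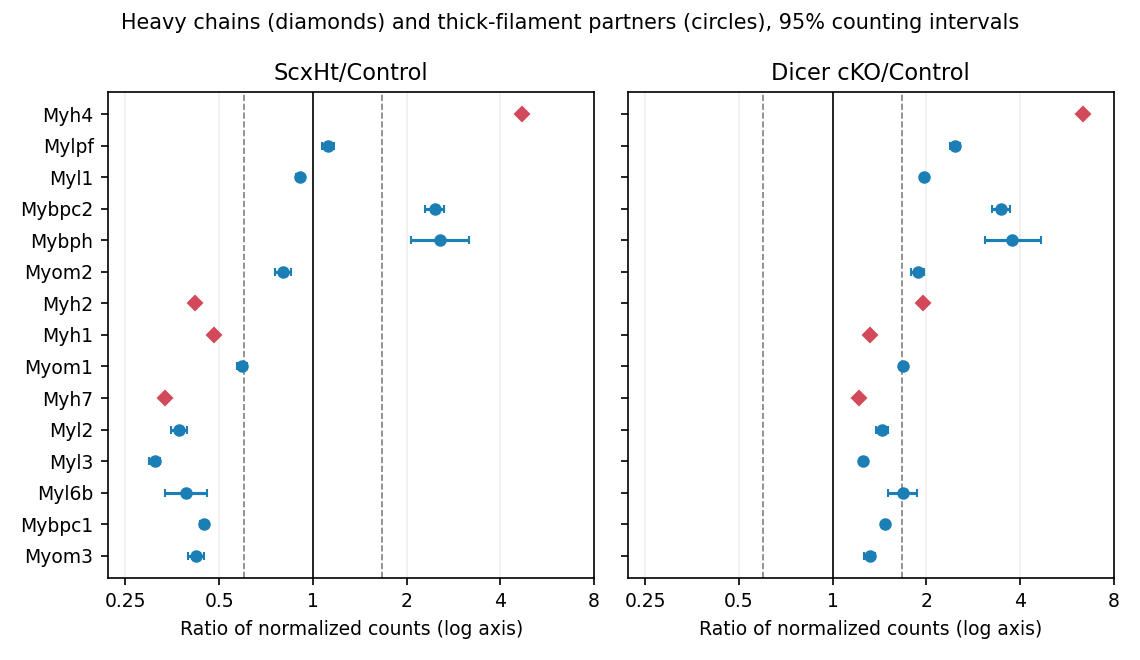
Ratios of normalized counts (log axis) with 95% counting intervals in ScxHt/Control and Dicer cKO/Control, with heavy chains as red diamonds and light chains, myosin-binding proteins and myomesins as blue circles, and dashed lines at the thresholds. Mybpc2 (2.46) and Mybph (2.56) are the partners to the right of the upper line in ScxHt/Control. There Myl2, Myl3, Myl6b, Mybpc1, Myom1 and Myom3 are left of the lower line, with the heavy chains Myh7, Myh1 (0.480) and Myh2 (0.419).

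Of 8 genes for folding and turnover of muscle myosin, all passed the minimum, and 1 was higher in Dicer cKO/Control, 4 were lower in ScxHt/Control and 5 were higher in Dicer cKO/ScxHt. The median log2 ratios were 0.40, -0.67 and 1.16. The shares of these calls over all genes analysed were 3.87%, 4.73% and 7.67%, in the same order. Unc45b, the chaperone that folds muscle myosin heads, had 349 reads in Control, 177 in ScxHt and 358 in Dicer cKO, and its ratios were 0.486 in ScxHt/Control and 1.07 in Dicer cKO/Control. Smyd1, a muscle methyltransferase that works with it, had 0.499 and 1.43. Trim63, the ubiquitin ligase MuRF1 that marks myosin for degradation, had 290, 176 and 593 reads and was the 1 gene higher in Dicer cKO/Control, with 2.12, beside 0.582 in ScxHt/Control. Unc45a, the form made in most cell types, was at 0.801 and 0.741.

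Of 20 transcriptional regulators of fibre type, 20 passed the minimum in Dicer cKO/Control and 19 in ScxHt/Control. In Dicer cKO/Control 3 were higher and 0 lower, and the median log2 ratio was 0.04. In ScxHt/Control 0 were higher and 2 lower, with a median of -0.20, so most of these genes, many of which are not particular to muscle, were near 1. In Dicer cKO/ScxHt 7 were higher and the median was 0.27. Across all genes, the higher calls made up 3.87% in Dicer cKO/Control and 7.67% in Dicer cKO/ScxHt, and the lower calls 4.73% in ScxHt/Control. The 3 higher genes in Dicer cKO/Control were Eya1, a transcriptional cofactor known to favour fast genes, with 93 reads in Control, 104 in ScxHt and 220 in Dicer cKO, Mafa, a large MAF factor, with 47, 49 and 100 reads, and Ppargc1a, the coactivator PGC-1alpha known for oxidative fibres, with 540, 347 and 1160. The 2 that were lower in ScxHt/Control were Tead4, with 149, 62 and 139 reads, and Vgll2, a muscle cofactor of TEAD proteins, with 115, 50 and 164. Neither the slow regulator Prox1 (0.768 in ScxHt/Control and 0.858 in Dicer cKO/Control) nor Sox6, a repressor of slow genes (0.930 and 1.09), passed a threshold.

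The heavy chains of smooth muscle and non-muscle cells were compared as the nearest relatives outside the sarcomere. Myh9, a non-muscle chain found in most cells, had 6289 reads in Control, 6240 in ScxHt and 5414 in Dicer cKO, with ratios of 0.951 in ScxHt/Control and 0.894 in Dicer cKO/Control. Myh10 was at 0.915 and 1.08, and Myh11, the smooth muscle chain, at 0.695 and 1.47. None of the 4 chains was higher in Dicer cKO/Control, 1 was lower in ScxHt/Control and 2 were higher in Dicer cKO/ScxHt, with median log2 ratios of 0.34, -0.33 and 0.69. The shares of these calls over all genes analysed were 3.87%, 4.73% and 7.67%, in the same order. The lower gene was Myh14, with 163, 58 and 232 reads and ratios of 0.341 in ScxHt/Control and 1.48 in Dicer cKO/Control. Myh14 (4.41) and Myh11 (2.15) were the 2 that were higher in Dicer cKO/ScxHt.

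For each member, the genes with the nearest pair of log2 ratios (Dicer cKO/Control and ScxHt/Control) were sought among 13118 genes over the 3 libraries, with the Euclidean distance in log2 units as the measure of likeness. Myh4 had few near genes, and the nearest was Actc1 at a distance of 0.26, then Pvalb at 0.91 and Orm1 at 0.91. Pvalb, the calcium buffer parvalbumin of fast fibres, had 731 reads in Control, 2460 in ScxHt and 2703 in Dicer cKO. For Myh7 the nearest were Myh6 (0.05), Grip2 (0.06) and Tnnc1, the slow and cardiac troponin C (0.06). Myh1 was nearest to Klhl41, a muscle kelch protein (0.02), Myh2 to Asb10 (0.07), Myh13 to Scn4a, the sodium channel of skeletal muscle (0.03), Myh7b to Acsm5 (0.05), Myh3 to Barx2 (0.06), and Myh8 to Satb1 (0.01). With 3 libraries, such likeness is a description of these samples.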

How the data were processed

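Achilles tendon RNA of 3 genotypes was analysed, with 1 RNA-seq and 1 small RNA-seq library each. The authors trimmed adaptors, mapped reads to GRCm38 (mm10) using TopHat and Bowtie2, and counted reads per gene using HTSeq. The authors deposited these raw counts without normalization, and RPKM values scaled by feature length and library total. Versions, annotation release, strand setting and the treatment of reads that fit several genes are not given in the sources used here. In the count table, 463 lines repeat an earlier line. The length-scaled small RNA values were not used.

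Ratios were taken from counts divided by DESeq2 1.42.0 size factors (R 4.3.3) of the 2 libraries compared, estimated on the whole table, with a minimum baseMean of 50 (15 in small RNA-seq). Ratios and exact intervals were computed in Python 3.11.15 with scipy 1.17.1, and the procedure was tested on simulated data. RPKM was used for levels and shares. The genes named were the members, 78 genes in 11 lists, the 3 genes nearest to each member in pattern, and features overlapping the members. Members and lists were chosen with earlier results of these data known. As alternatives, total counts, TMM factors of edgeR 4.0.16, total counts without features above 1%, size factors over all 3 libraries, other minimum baseMeans, thresholds of 2 and 0.5, a pseudocount of 1, Ttn as yardstick, and shares by reads or per unshared length were tried. Single values of some listed genes are not reported here.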

Additional observations from a re-analysis of the deposited data

How the results depend on the processing

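These libraries give no spread between mice, and all intervals cover counting error only. No paired analysis was possible because each genotype has 1 library. The 108 ratios of members recomputed under 4 other scalings kept their direction, crossed no threshold and moved by at most 1.08-fold. With thresholds of 2 and 0.5, 1 member, Myh4, was higher in Dicer cKO/Control, and Myh2, Myh3 and Myh8 lost the call. The median log2 ratio of members was 0.73 in Dicer cKO/Control and -1.02 in ScxHt/Control with a minimum baseMean of 200, which leaves out Myh7b, and -0.95 in ScxHt/Control with total-count scaling. Relative to Ttn, 15 ratios were on the other side of 1. In ScxHt/Control these were Myh1 (1.05), Myh3 (1.10), Myh13 (1.36) and Myh8 (1.55), in Dicer cKO/ScxHt Myh1 (0.787), Myh13 (0.685), Myh7b (0.935), Myh6 (0.991), Myh8 (0.788) and Myh4 (0.387), and in Dicer cKO/Control Myh1 (0.824), Myh7 (0.757), Myh13 (0.932), Myh7b (0.724) and Myh6 (0.734). The share of Myh4 in the adult chains was 6.35%, 43.6% and 22.6% by reads and 7.37%, 46.9% and 25.3% per unshared length in the Control, ScxHt and Dicer cKO libraries. The share of Myh3 and Myh8 was 3.01%, 2.69% and 3.22% by reads and 2.33%, 1.84% and 2.38% per unshared length.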
